A study of Mus musculus with 6 samples.

Results

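Cytochrome P450 enzymes of families 1 to 4, together with Por, the reductase that feeds them electrons, were followed in the liver of fasted and refed mice. Members were the genes whose deposited symbol was Cyp, a digit from 1 to 4, a letter and a number, plus Por. This gave 53 genes with 62 transcripts among 10954 named genes, and for the 5 members with several listed transcripts the highest by mean was used. Among the 53 were 1 gene of family 1, 34 of family 2, 6 of family 3, 11 of family 4 and Por. Another 4 transcripts had letters after the number, Cyp2c53-ps, Cyp2d37-ps, Cyp4a12a and Cyp4a12b, and were not members. Symbols are those deposited, so Cyp2c44 is the gene that a current RefSeq table calls Cyp2c23.

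Liver RNA came from male mice of the inbred C57BL/6J strain, 8 weeks old, in 6 libraries. Fasted libraries 1, 3 and 4 followed a 12 h fast that began at 10 pm. Refed libraries 5, 7 and 8 followed a 12 h fast through the day and then 12 h on a diet of 69% sucrose and 10% fat, and all livers were collected at 10 am. The comparison therefore asks how transcript levels differed between fasting and a night of sucrose feeding. Reads in the genes that the authors called summed to between 26237934 and 33219013 per library, and total depth is unknown. The livers are whole tissue, so fewer cells of a type and less RNA per cell cannot be told apart.

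P450 enzymes are haem proteins of the endoplasmic reticulum that insert an oxygen atom into drugs, steroids, fatty acids and other lipids. Each takes its electrons from NADPH through the Por protein, in part with cytochrome b5. In liver, families 1, 2 and 3 handle mainly foreign compounds and steroids and are induced through the receptors AHR, CAR and PXR, whereas the 4a subfamily oxidises the far end of fatty acids and is induced through PPARA.

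Promoter windows of 6 members are given first, for genes with large falls and for closely related pairs whose copies can be compared. The windows are from RefSeq (GRCm38.p6), which is another build than that of the deposited files, and run 5′ to 3′ on the gene's strand from 250 bases before to 50 after the annotated start. Capitals mark TATAAA, the core of a TATA box, then the motif AGGTCA, known as a recognition element of many nuclear receptors, and the letters CAAAGTCCA, of the HNF4 type of site, each on either strand. Por and Cyp2e1 had large falls, Cyp3a25 and Cyp3a59 fell together and Cyp2c40 and Cyp2c69 rose together. The windows lie at chr5:135688895-135689194 (plus strand) for Por, chr7:140763569-140763868 (plus) for Cyp2e1, chr5:146009569-146009868 (minus) for Cyp3a25, chr5:146079008-146079307 (plus) for Cyp3a59, chr19:39812765-39813064 (minus) for Cyp2c40 and chr19:39886720-39887019 (minus) for Cyp2c69.
Por: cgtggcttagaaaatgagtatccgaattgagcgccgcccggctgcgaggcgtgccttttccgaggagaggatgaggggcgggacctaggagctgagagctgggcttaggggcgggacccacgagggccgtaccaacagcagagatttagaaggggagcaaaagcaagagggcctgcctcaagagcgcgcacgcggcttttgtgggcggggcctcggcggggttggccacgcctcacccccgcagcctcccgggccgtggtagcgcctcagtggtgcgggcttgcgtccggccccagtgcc
Cyp2e1: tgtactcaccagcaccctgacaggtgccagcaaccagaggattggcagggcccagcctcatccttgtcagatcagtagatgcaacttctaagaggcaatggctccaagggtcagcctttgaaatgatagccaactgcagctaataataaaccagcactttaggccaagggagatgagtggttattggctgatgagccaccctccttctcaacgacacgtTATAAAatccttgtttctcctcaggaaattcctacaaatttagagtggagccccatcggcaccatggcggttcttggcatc
Cyp3a25: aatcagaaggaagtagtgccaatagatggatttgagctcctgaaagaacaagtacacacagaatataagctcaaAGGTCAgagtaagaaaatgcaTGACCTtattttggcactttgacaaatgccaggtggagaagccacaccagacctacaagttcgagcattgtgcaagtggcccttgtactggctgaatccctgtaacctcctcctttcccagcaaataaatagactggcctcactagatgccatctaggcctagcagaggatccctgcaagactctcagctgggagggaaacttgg
Cyp3a59: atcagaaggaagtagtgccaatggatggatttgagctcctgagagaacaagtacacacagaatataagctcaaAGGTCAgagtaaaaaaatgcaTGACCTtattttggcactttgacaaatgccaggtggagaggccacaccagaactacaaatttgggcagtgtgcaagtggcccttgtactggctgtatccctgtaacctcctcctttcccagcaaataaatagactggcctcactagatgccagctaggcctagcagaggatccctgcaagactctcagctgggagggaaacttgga
Cyp2c40: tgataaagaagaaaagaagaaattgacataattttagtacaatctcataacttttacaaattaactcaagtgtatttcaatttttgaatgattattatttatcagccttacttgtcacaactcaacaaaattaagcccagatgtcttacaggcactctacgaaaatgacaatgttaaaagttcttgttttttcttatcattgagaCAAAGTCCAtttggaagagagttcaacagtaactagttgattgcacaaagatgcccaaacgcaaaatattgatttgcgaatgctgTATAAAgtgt
Cyp2c69: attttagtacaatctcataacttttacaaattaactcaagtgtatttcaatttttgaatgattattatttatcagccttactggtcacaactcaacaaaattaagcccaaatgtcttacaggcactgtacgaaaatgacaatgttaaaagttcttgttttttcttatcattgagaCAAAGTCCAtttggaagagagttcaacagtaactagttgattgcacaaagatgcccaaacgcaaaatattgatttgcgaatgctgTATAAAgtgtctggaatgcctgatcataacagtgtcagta

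Expression was given as RPKM, reads scaled to transcript length and library size, so levels of different genes can be set side by side. Of the 53 members, 51 reached a mean of 0.5 RPKM across the 6 libraries and were tested with limma on log2(RPKM + 1), with Benjamini-Hochberg adjustment over all 10897 genes tested and a threshold of 0.05. In refed liver 21 members were lower and 9 higher, and 21 did not pass. Over all genes tested 15.8% were called lower and 26.4% higher, 42.2% in either direction. The median log2 fold change was -0.33 over the members and 0.10 over all genes tested. An absolute log2 fold change of at least 1 was reached by 14 called members, 12 lower and 2 higher, where 6.65% of all genes tested were called at that size. The 2 groups did not overlap for 35 of the 51 members, 26 with refed lower and 9 with refed higher, beside 55.4% of all genes, 20.7% with refed lower and 34.8% with refed higher. After centring of every library on its median, 26 members were lower and 8 higher, and over all genes the share of calls on the higher side went from 62.6% to 49.1%. The 2 members below the filter were Cyp2d34, at 0.0383 to 1.37 RPKM, and Cyp2g1, at 0.0755 to 1.01.

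**Figure D1:**
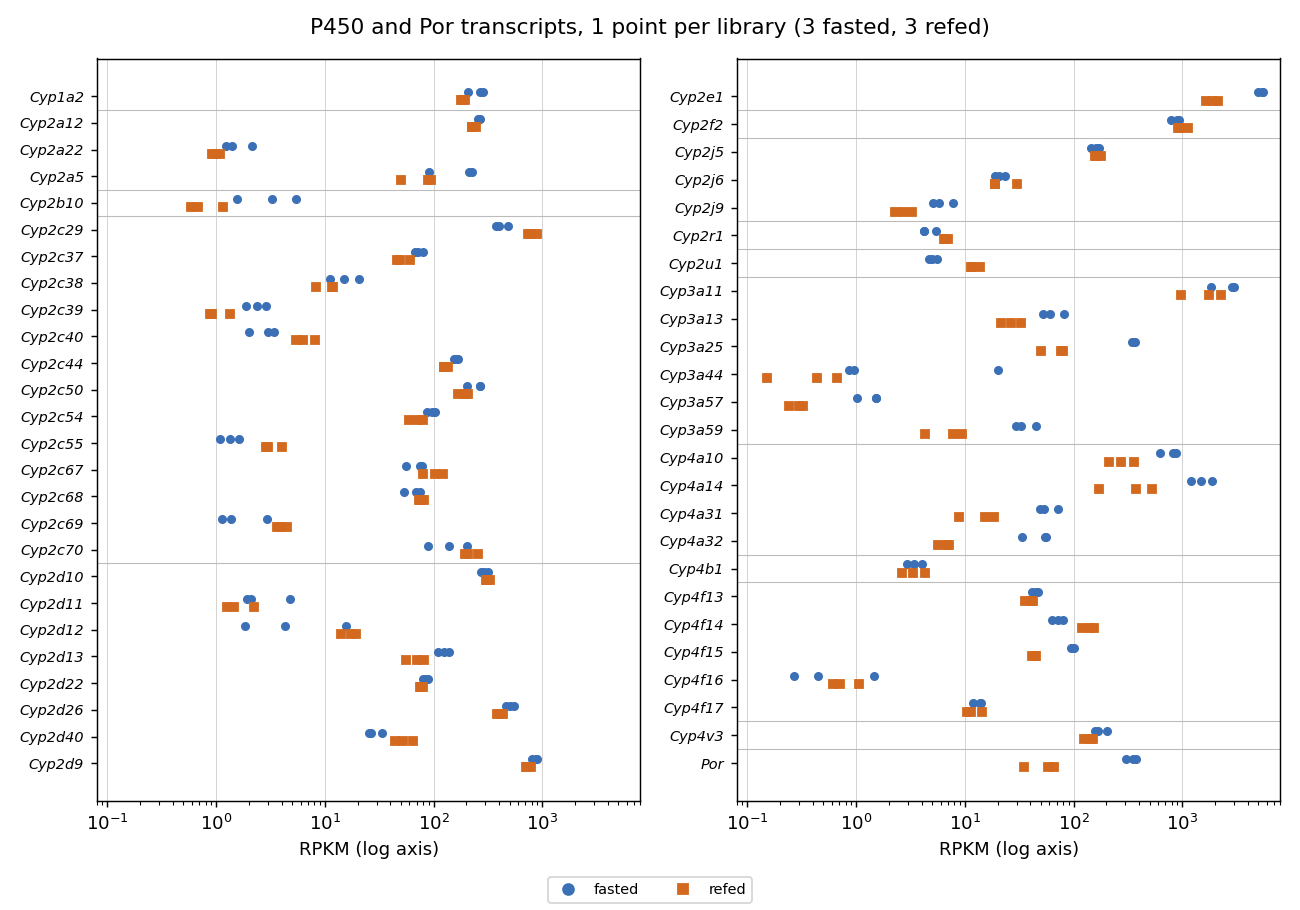
RPKM of each of the 51 members tested, on a log axis, with 1 circle per fasted and 1 square per refed library (3 of each); grey lines part the subfamilies. Cyp2e1 lies farthest to the right, between 1647 and 5560 RPKM, and the refed squares of Por, Cyp3a25 and the Cyp4a genes lie to the left of all fasted circles.

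Por, the NADPH reductase on which the microsomal P450 enzymes depend, had the largest fitted change among the members tested. It stood at 353, 377 and 303 RPKM in fasted 1, 3 and 4 and at 66.7, 35.2 and 57.8 in refed 5, 7 and 8. The lowest fasted library was thus well above the highest refed library. Between group means of 344 ± 37.6 and 53.2 ± 16.3 RPKM (SD, n = 3) Por fell 6.47-fold, a fitted log2 fold change of -2.71 ± 0.22 (SE; limma adjusted p = 8.3e-05). Cyp4a32 was within the error of this value at -2.67 ± 0.19, and by the ratio of group means it fell more, 7.34-fold. The authors' deposited table lists 51888, 57741 and 44929 reads of Por in fasted 1, 3 and 4 and 10086, 5995 and 8045 in refed 5, 7 and 8. In that authors' deposited table, which uses mm9 per the submitters' processing notes, the gene spans chr5:136145903-136211196, introns included. The log2 fold change given there for Por was -2.87, smaller in size than those of Cyp4a32 (-3.55), Cyp3a25 (-3.32) and Cyp3a59 (-3.05).

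P450 transcripts also became fewer in sum, but by less than Por. Summed over the 52 P450 genes, the level was 15041, 16966 and 16308 RPKM in fasted 1, 3 and 4 and 10297, 8562 and 10501 in refed 5, 7 and 8, a refed to fasted ratio of 0.608. Set against that sum, the RPKM of Por amounted to 1.86% to 2.35% in the fasted and 0.411% to 0.648% in the refed libraries. P450 genes made up 3.06% to 3.61% of the summed RPKM of all named genes in fasted and 1.83% to 2.21% in refed liver. No test was made on these sums, since the members were chosen together. Refed 7 had the lowest P450 sum, the lowest Por value and the lowest refed value in 14 of the 21 members called lower.

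**Figure D2:**
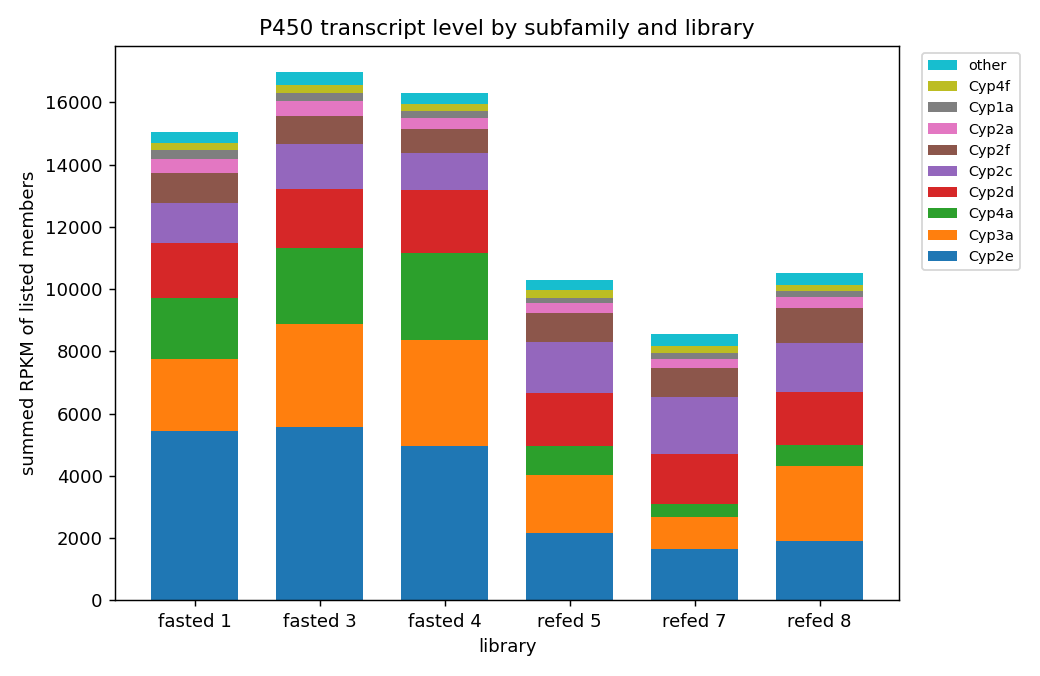
Stacked bars of summed RPKM by subfamily in each library, starting at 0; other holds the subfamilies 2b, 2g, 2j, 2r, 2u, 4b and 4v. The lowest fasted bar reaches 15041 and the highest refed bar 10501, and the blocks of Cyp2e and Cyp4a are the ones that shrink most in RPKM.

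Cyp2e1, which oxidises ethanol, acetone and other small molecules, was the most abundant member in both groups. Its values were 5424, 5560 and 4947 RPKM in fasted 1, 3 and 4 and 2151, 1647 and 1910 in refed 5, 7 and 8. The groups were far apart, and Cyp2e1 fell 2.79-fold on refeeding (fitted log2 fold change -1.49 ± 0.13, limma adjusted p = 0.00013). Its share of all P450 RPKM went from 33.0% to 19.4%. In the authors' deposited table Cyp2e1 spans chr7:147949638-147960874 of mm9.

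In family 1, Cyp1a2 was the single listed gene, a caffeine and aromatic amine oxidase and a target of AHR. It was at 285, 269 and 208 RPKM in fasted 1, 3 and 4 and at 179, 193 and 183 in refed 5, 7 and 8. Every refed value was below every fasted value (log2 fold change -0.44 ± 0.13, limma adjusted p = 0.023), but the call was lost without fasted 1 (adjusted p = 0.06), fasted 3 (0.079), refed 5 (0.078) or refed 8 (0.063). Cyp1a1 had no listed RPKM values. The authors' deposited table gives it as lower (log2 fold change -0.84, DESeq false discovery rate 0.041), with 78 to 112 reads in the fasted and 52 to 67 in the refed libraries.

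Among the 2a genes 1 of 3 was called, beside 42.2% of all genes tested. Cyp2a5, the mouse coumarin hydroxylase, was at 211, 225 and 91.8 RPKM in fasted 1, 3 and 4 and at 94.7, 50.6 and 88.9 in refed 5, 7 and 8. Fasted 4 lay inside the refed range, so the groups overlapped although the gene was called lower (log2 fold change -1.11 ± 0.36, limma adjusted p = 0.04). That call was lost whenever a library other than fasted 4 was left out, with adjusted p from 0.052 to 0.13. Cyp2a12, which acts on bile acids in mouse, was the highest 2a gene at 262 ± 3.77 and 232 ± 13.6 RPKM (SD, n = 3; adjusted p = 0.12), and Cyp2a22 was low at 1.59 and 0.996 RPKM (adjusted p = 0.069). Both were called lower with median centring (adjusted p of 0.026 and 0.025).

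Cyp2b10, the classical target of phenobarbital and CAR, was low in all libraries. Its values were 3.26, 5.43 and 1.55 RPKM in fasted 1, 3 and 4 and 0.688, 1.15 and 0.593 in refed 5, 7 and 8, so the groups were close to each other but separate. On refeeding the mean fell 4.22-fold (fitted log2 fold change -1.20 ± 0.30, limma adjusted p = 0.015). With 0.1 in place of 1 added to RPKM the log2 fold change was -1.83, as the added constant weighs on low genes. Fasted 4 was the lowest fasted library for both Cyp2a5 and Cyp2b10.

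**Figure D3:**
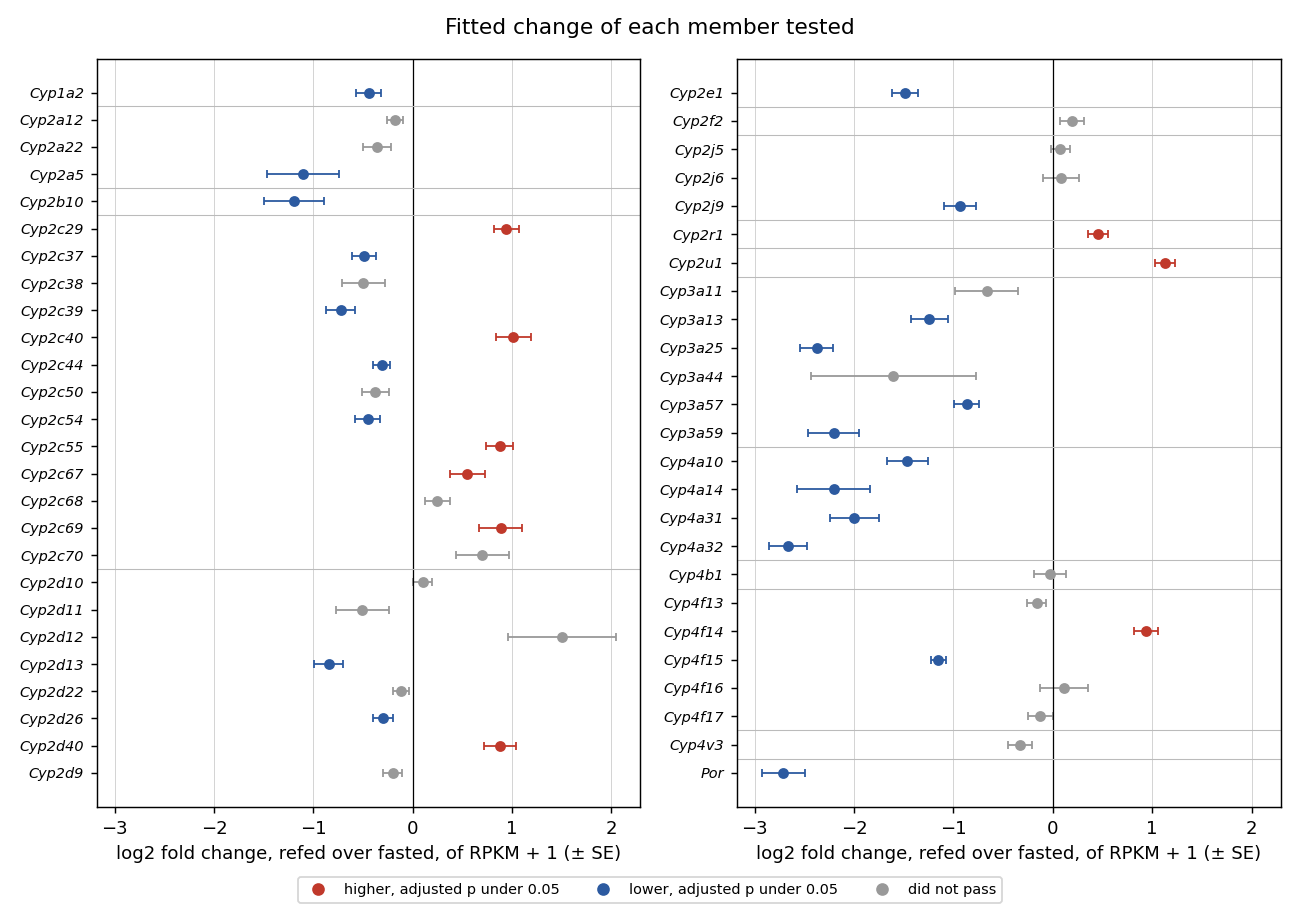
Fitted log2 fold change of refed over fasted for each of the 51 members tested, with standard errors; blue and red are lower and higher at an adjusted p under 0.05 and grey did not pass. Por, Cyp4a32 and Cyp3a25 lie farthest to the left at -2.71, -2.67 and -2.38, while Cyp2u1, at 1.13, is the called member farthest to the right.

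The 2c genes, many of which oxidise arachidonic acid as well as drugs, went in both directions. Of 13 members 5 were higher, 4 lower and 4 did not pass, beside 26.4% higher and 15.8% lower over all genes tested. Summed, the 2c genes were at 1300, 1422 and 1180 RPKM in fasted 1, 3 and 4 and at 1644, 1815 and 1568 in refed 5, 7 and 8, so that every refed sum lay above every fasted one. Their share of P450 RPKM went from 8.08% to 17.1%.

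Cyp2c29, a CAR-inducible enzyme, was the highest 2c gene in every library. It was at 375, 489 and 403 RPKM in fasted 1, 3 and 4 and at 795, 890 and 742 in refed 5, 7 and 8. All refed values were above all fasted ones, with a rise of 1.91-fold (log2 fold change 0.94 ± 0.13, limma adjusted p = 0.00093). Cyp2c40 was far lower in level, at 2.99, 3.44 and 2.0 RPKM in fasted 1, 3 and 4 and 5.45, 8.16 and 6.35 in refed 5, 7 and 8. It rose 2.37-fold (log2 fold change 1.01 ± 0.18, adjusted p = 0.003), and the groups did not overlap. Its copy Cyp2c69 was at 1.37, 2.94 and 1.15 RPKM in fasted 1, 3 and 4 and at 3.96, 4.51 and 3.61 in refed 5, 7 and 8 (0.88 ± 0.22, adjusted p = 0.013), again without overlap. Cyp2c55 was also low and rose 2.46-fold, with means of 1.35 ± 0.274 and 3.32 ± 0.642 RPKM (SD, n = 3; adjusted p = 0.0019).

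Cyp2c67 went from 69.1 ± 11.9 to 102 ± 20.4 RPKM (SD, n = 3; limma adjusted p = 0.037), a call that was lost with median centring (adjusted p = 0.062) and without fasted 1, fasted 3, refed 7 or refed 8 (0.06 to 0.11). The lower 2c members were Cyp2c37, Cyp2c39, Cyp2c44 and Cyp2c54. Cyp2c39, a retinoic acid hydroxylase in mouse, had the largest fall of these, from 2.4 ± 0.504 to 1.05 ± 0.26 RPKM (log2 fold change -0.72 ± 0.14, adjusted p = 0.0054). The arachidonic acid epoxygenase gene Cyp2c44 fell from 160 ± 8.02 to 129 ± 6.79 RPKM (adjusted p = 0.019). Its call was lost without fasted 3, refed 7 or refed 8 (0.058 to 0.071). Cyp2c54 fell from 96.2 ± 8.92 to 70.4 ± 10.5 RPKM and Cyp2c37 from 73.4 ± 6.64 to 52.3 ± 7.55 (adjusted p of 0.022 and 0.013). The former call was lost without fasted 1, fasted 3 or refed 8 (0.062 to 0.065) and the latter without refed 5 (0.052).

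Those of the 2c genes that did not pass were Cyp2c38, Cyp2c50, Cyp2c68 and Cyp2c70. Cyp2c70, which makes the muricholic acids of mouse bile, spread widely in the fasted libraries at 202, 138 and 88.3 RPKM, beside 197, 258 and 209 in refed 5, 7 and 8 (limma adjusted p = 0.068). Without fasted 1, which lay inside the refed range, it was called higher (log2 fold change 0.99, adjusted p = 0.0097). Means of Cyp2c50 were 247 ± 37.0 RPKM with fasting and 189 ± 19.1 with refeeding (SD, n = 3; adjusted p = 0.053), and it was called lower without fasted 4 (0.013). It was also called lower with median centring (0.041), TMM-style scaling (0.036), robust variances (0.046) and a filter at 5 RPKM (0.047). Cyp2c68 was at 65.5 and 77.3 RPKM (adjusted p = 0.15). Cyp2c38 was at 15.7 and 10.6 RPKM (adjusted p = 0.097) and was called lower without fasted 1 (0.024).

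The 2d genes, relatives of the human drug enzyme CYP2D6, showed small differences in sum, with a refed to fasted ratio of 0.886. Of 9 members 8 were tested, with 1 higher, 2 lower and 5 that did not pass, beside 42.2% of all genes tested called in either direction. The sums were 1779 to 2016 RPKM in the fasted and 1629 to 1721 in the refed libraries. Cyp2d9, a testosterone hydroxylase that is higher in male than in female mice, was the highest of them at 800, 882 and 887 RPKM in fasted 1, 3 and 4 and 796, 722 and 713 in refed 5, 7 and 8. The groups were separate by a small gap and the gene did not pass (log2 fold change -0.20 ± 0.10, limma adjusted p = 0.13), although it did with median centring (0.043).

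Cyp2d40 was the member of this group that rose, from 33.8, 25.7 and 26.6 RPKM in fasted 1, 3 and 4 to 44.2, 64.7 and 52.5 in refed 5, 7 and 8. All refed values were above the fasted ones (log2 fold change 0.88 ± 0.16, limma adjusted p = 0.0033). Cyp2d13, listed as a noncoding RefSeq transcript, fell from 110, 124 and 139 RPKM to 70.3, 56.3 and 81.0 in the same order of libraries (-0.85 ± 0.15, adjusted p = 0.0028). Cyp2d26 was at 460, 502 and 555 RPKM in fasted 1, 3 and 4 and at 405, 387 and 435 in refed 5, 7 and 8, lower by a smaller step (-0.30 ± 0.10, adjusted p = 0.045). Leaving out any library other than fasted 1 ended the call of Cyp2d26, with adjusted p from 0.061 to 0.12.

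The remaining 2d genes did not pass. Cyp2d10 was at 294 ± 23.4 and 314 ± 12.7 RPKM and Cyp2d22 at 83.7 ± 4.3 and 76.9 ± 2.53 in fasted and refed liver (SD, n = 3; limma adjusted p of 0.42 and 0.25). With TMM-style scaling Cyp2d22 was called lower (0.046). Cyp2d12 was at 15.7, 1.84 and 4.29 RPKM in fasted 1, 3 and 4 and at 17.3, 14.1 and 19.5 in refed 5, 7 and 8 (adjusted p = 0.057). Fasted 1 alone reached the refed range, and without it Cyp2d12 was called higher (log2 fold change 2.20, adjusted p = 0.0012). With all libraries it was called higher after scaling to equal summed RPKM (0.045) and with a filter at 5 RPKM (0.049). Cyp2d11 was low, at 2.94 and 1.66 RPKM (adjusted p = 0.16), with its highest value, 4.83, also in fasted 1.

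Among the small subfamilies 2f, 2j, 2r and 2u the abundant genes did not pass. Cyp2f2, which activates naphthalene, had rank 4 among the P450 genes in fasted liver, at 935, 895 and 789 RPKM in fasted 1, 3 and 4 and 910, 949 and 1138 in refed 5, 7 and 8. The groups overlapped and the gene did not pass (log2 fold change 0.19 ± 0.12, limma adjusted p = 0.24). Cyp2j5, an arachidonic acid epoxygenase in mouse, was at 145, 171 and 160 RPKM in fasted 1, 3 and 4 and at 156, 180 and 166 in refed 5, 7 and 8, with overlap (0.08 ± 0.10, adjusted p = 0.56). For Cyp2j6 the means were 21.0 and 22.8 RPKM (adjusted p = 0.75).

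Called members of these subfamilies were all low in level. Cyp2j9 fell from 5.76, 5.06 and 7.80 RPKM in fasted 1, 3 and 4 to 3.28, 2.70 and 2.28 in refed 5, 7 and 8 (log2 fold change -0.93 ± 0.16, limma adjusted p = 0.0026). Cyp2u1, a hydroxylase of long-chain fatty acids, rose from 5.03, 5.50 and 4.69 RPKM to 11.7, 13.9 and 11.5 in the same order (1.13 ± 0.10, adjusted p = 0.00013), the largest fitted rise among the called members. Cyp2r1, which hydroxylates vitamin D in liver, rose from 5.38, 4.25 and 4.24 RPKM to 7.01, 6.61 and 6.37 (0.45 ± 0.10, adjusted p = 0.0095). For each of the 3 genes the groups did not overlap, which held for 55.4% of all genes tested.

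In the 3a subfamily 4 of 6 members were lower and none was higher, beside 15.8% lower and 26.4% higher over all genes tested. The median log2 fold change of the 6 was -1.42. Cyp3a11, the main drug-metabolising 3a enzyme of mouse liver and a PXR target, had rank 2 in level. It was at 1841, 2872 and 2969 RPKM in fasted 1, 3 and 4 and at 1774, 964 and 2290 in refed 5, 7 and 8. Refed 8 lay above fasted 1, and the gene did not pass (log2 fold change -0.67 ± 0.32, limma adjusted p = 0.13), with adjusted p from 0.053 to 0.34 as each library was left out.

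Cyp3a25, whose highest listed transcript is a noncoding RefSeq form, had a narrower spread, at 350, 347 and 370 RPKM in fasted 1, 3 and 4 and 80.4, 50.5 and 76.1 in refed 5, 7 and 8. The lowest fasted value was far above the highest refed one, a 5.15-fold fall (log2 fold change -2.38 ± 0.17, limma adjusted p = 4.7e-05). Its neighbour Cyp3a59 fell 4.99-fold, from 44.7, 33.0 and 29.6 RPKM in fasted 1, 3 and 4 to 7.74, 4.27 and 9.48 in refed 5, 7 and 8 (-2.21 ± 0.25, adjusted p = 0.00044). Cyp3a13 fell from 81.7, 61.2 and 52.6 RPKM to 26.6, 21.6 and 32.5 in the same order (-1.24 ± 0.19, adjusted p = 0.0016). Low in all libraries, Cyp3a57 fell as well, with means of 1.36 ± 0.301 and 0.287 ± 0.0417 RPKM (SD, n = 3; adjusted p = 0.0014). Transcripts were listed only if they reached 1 RPKM in some library. Cyp3a57 did so in fasted libraries only, at 1.01 to 1.54, beside 0.241 to 0.323 in refed ones. That filter favours a fall of this gene, so its call among the lower 3a members carries this limit. The Cyp3a11 to Cyp3a25 ratio was 5.26 to 8.29 in the fasted and 19.1 to 30.1 in the refed libraries, so the balance within the subfamily differed between the groups without overlap.

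A single library set the value of Cyp3a44, a gene higher in female than in male mouse liver. It was at 20.2 RPKM in fasted 1 but at 0.958 and 0.859 in fasted 3 and 4 and at 0.666, 0.151 and 0.432 in refed 5, 7 and 8. The gene did not pass (log2 fold change -1.60 ± 0.83, limma adjusted p = 0.16), and without fasted 1 its log2 fold change was -0.45 (adjusted p = 0.082). Of the 7 P450 genes listed as female-biased, Cyp3a44 was the only member. Cyp3a16, another of the 7, is in the authors' deposited table as lower. It had 71, 82 and 84 reads in fasted 1, 3 and 4 and 59, 39 and 49 in refed 5, 7 and 8.

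All 4 members of the 4a subfamily fell. These enzymes hydroxylate fatty acids at the end of the chain and are classical targets of PPARA. Summed, they were at 1940, 2442 and 2797 RPKM in fasted 1, 3 and 4 and at 907, 398 and 669 in refed 5, 7 and 8, and their share of P450 RPKM went from 14.9% to 6.72%. The median log2 fold change of the 4 was -2.10. Over all genes tested 15.8% were called lower.

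Cyp4a14 was the highest, at 1196, 1473 and 1874 RPKM in fasted 1, 3 and 4 and 521, 171 and 374 in refed 5, 7 and 8. The fall was 4.26-fold (fitted log2 fold change -2.21 ± 0.37, limma adjusted p = 0.0026), and by mean level its rank among the P450 genes went from 3 to 7. Cyp4a10 was at 617, 881 and 819 RPKM in fasted 1, 3 and 4 and at 361, 213 and 272 in refed 5, 7 and 8 (-1.47 ± 0.21, adjusted p = 0.0011). Cyp4a32 had the largest change of any P450 gene called, from 55.3, 33.4 and 54.9 RPKM to 7.07, 5.64 and 6.87 in the same order (-2.67 ± 0.19, adjusted p = 5.4e-05). Cyp4a31 went from 71.3, 53.8 and 49.5 RPKM to 18.6, 8.79 and 15.3 (-2.0 ± 0.25, adjusted p = 0.00066). None of the 4 had groups that overlapped, and refed lay below fasted without overlap for 20.7% of all genes tested.

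The authors' deposited table places the 4a members side by side in mm9, Cyp4a14 at chr4:115158805-115168747, Cyp4a10 at chr4:115190869-115206254, Cyp4a31 at chr4:115236254-115251618 and Cyp4a32 at chr4:115273574-115294207. Cyp4a12a and Cyp4a12b, male-biased in mouse liver, were not members by their symbols. Cyp4a12a was at 92.1 ± 13.5 and 113 ± 19.9 RPKM and Cyp4a12b at 42.8 ± 2.06 and 35.5 ± 5.68 in fasted and refed liver (SD, n = 3; limma adjusted p of 0.18 and 0.094), so neither of these genes passed.

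**Figure D4:**
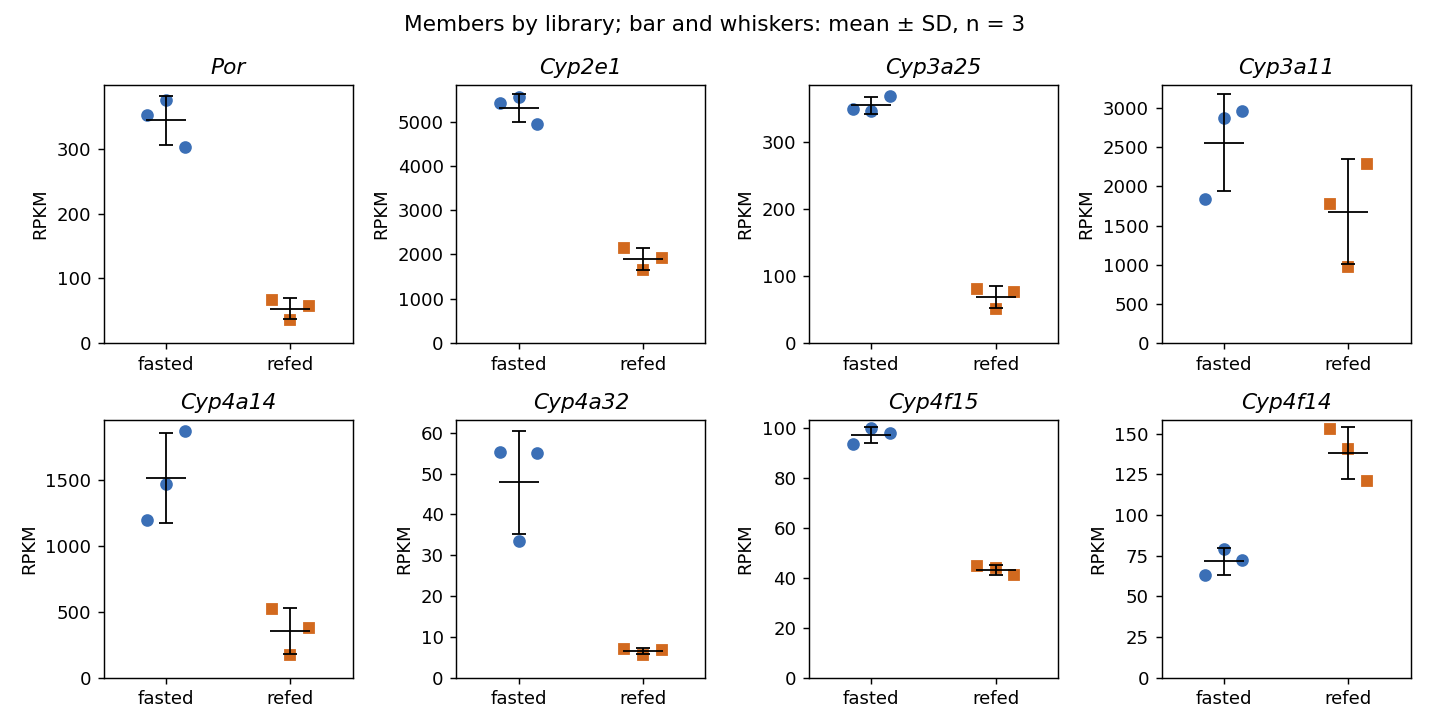
RPKM of 8 members by library on axes that start at 0, with circles for fasted and squares for refed libraries and bars for mean ± SD (n = 3). The groups are apart for Por, Cyp2e1, Cyp3a25, Cyp4a14, Cyp4a32, Cyp4f15 and Cyp4f14, with Cyp4f14 higher in refed liver, and overlap for Cyp3a11.

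Among the 4f genes, which include hydroxylases of leukotrienes and fatty acids, the sums of the groups overlapped while their makeup differed. The 5 members summed to 211, 241 and 230 RPKM in fasted 1, 3 and 4, while the refed sums were 250, 235 and 216 in libraries 5, 7 and 8, with overlap. This rests on 1 transcript per gene, a refed to fasted ratio of 1.03 for the Cyp4f sum, which was 1.52 with all listed transcripts summed. Cyp4f15 fell from 93.7, 99.8 and 97.9 RPKM to 44.7, 43.7 and 41.0 in the same order of libraries (log2 fold change -1.15 ± 0.08, limma adjusted p = 3.9e-05). Cyp4f14 rose from 62.9, 79.3 and 72.6 RPKM to 153, 140 and 121 (0.94 ± 0.12, adjusted p = 0.00077). The Cyp4f14 to Cyp4f15 ratio was 0.671 to 0.794 in the fasted and 2.94 to 3.42 in the refed libraries. In mm9, the authors' deposited table gives both on the same chromosome, Cyp4f15 at chr17:32822572-32840297 and Cyp4f14 at chr17:33042016-33054023.

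Cyp4f13, Cyp4f16 and Cyp4f17 did not pass. Cyp4f13 was at 44.6 ± 3.18 and 39.8 ± 3.49 RPKM (SD, n = 3; limma adjusted p = 0.21), Cyp4f17 at 13.2 and 12.0 (0.45) and Cyp4f16 at 0.728 and 0.796 (0.74). With TMM-style scaling (0.045) or quantile normalization (0.042) Cyp4f13 was called lower. Cyp4v3, a fatty acid hydroxylase, was at 168, 202 and 156 RPKM in fasted 1, 3 and 4 and at 124, 141 and 152 in refed 5, 7 and 8, separate by a small gap (log2 fold change -0.33 ± 0.12, adjusted p = 0.061). It was called lower without fasted 4 (0.044), with median centring (0.033) and with TMM-style scaling (0.027). Cyp4b1, at 2.93, 3.43 and 4.07 RPKM in fasted and 2.63, 4.32 and 3.31 in refed libraries, overlapped between the groups (-0.03 ± 0.16, adjusted p = 0.90).

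The order of the P450 genes by level shifted with these changes. In fasted liver Cyp2e1, Cyp3a11 and Cyp4a14 together made up 58.3% of P450 RPKM. By mean, Cyp2e1 and Cyp3a11 had ranks 1 and 2 in both groups, but the Cyp2e1 to Cyp3a11 ratio, 1.67 to 2.95 in the fasted libraries, was 0.834 to 1.71 in the refed ones, so their order was not the same in every refed library. Cyp2c29 moved from rank 8 to rank 4 and Cyp3a25 from rank 9 to rank 24. The coefficient of variation within a group had a median over the members of 16.0% in fasted and 14.9% in refed liver, from 1.44% for Cyp2a12 in fasted liver to 152% for Cyp3a44, also in fasted liver.

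Genes listed as pericentral went in both directions. Of 8 such P450 genes, Cyp2e1, Cyp1a2, Cyp2a5, Cyp2c37 and Cyp2c54 were lower, Cyp2c29 was higher, and Cyp2c50 and Cyp3a11 did not pass. The listed periportal gene was Cyp2f2, which did not pass. Outside the P450 genes, 9 pericentral markers summed to 840 to 1033 RPKM in the fasted and 1066 to 1115 in the refed libraries, with 1 higher (Glul), 3 lower (Slc1a2, Tbx3 and Lgr5) and 5 that did not pass. The 8 periportal markers summed to 4413 to 5175 and 1507 to 1597 RPKM, with 6 lower, 1 higher and 1 that did not pass. Pck1 and Sds, 2 of the lower ones, are also known as genes induced by fasting. Over all genes tested 15.8% were called lower and 26.4% higher. The part of zonation in the P450 results was not tested.

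Most markers of other cells did not pass. The 5 hepatocyte markers, led by Alb, summed to 42282 to 50550 RPKM in the fasted and 43180 to 46045 in the refed libraries. Most of this sum is Alb, and of the 5 genes Tat, a tyrosine aminotransferase gene, was called lower, with means of 1101 and 261 RPKM (limma adjusted p = 9.3e-05), while 4 did not pass. All 6 Kupffer cell and all 5 sinusoidal endothelial markers were measured and did not pass, with sums of 24.2 to 72.9 and 33.8 to 39.4 RPKM in fasted and 37.4 to 40.4 and 37.5 to 43.3 in refed libraries. Fasted 1, which stood apart in Cyp3a44 and Cyp2d12, had the highest Kupffer sum, 72.9 RPKM. The neutrophil sum, from 2 measured genes, was 3.82 RPKM in fasted 1 and nearly as high in refed 8, at 3.62. None of the 3 erythroid markers passed. Hba-a1 and Hbb-bt were highest in fasted 1, at 9.62 and 8.91 RPKM, whereas Alas2 was highest in fasted 3, at 58.5. Fabp2, the only measured gene of a kidney and intestine list, was called lower, with means of 111 and 59.8 RPKM (adjusted p = 0.011). Of 5 cholangiocyte markers 3 were higher (Krt19, Krt7 and Sox9), with sums of 17.9 to 27.0 and 21.3 to 29.6 RPKM, and of 5 stellate cell markers 1 (Des). Most of the cholangiocyte sum is Spp1, which did not pass. The 3 higher cholangiocyte genes were low, with group means from 0.366 RPKM (Krt7, fasted) to 2.90 RPKM (Sox9, refed). Among all genes tested 42.2% were called in either direction. The part of these cells in the results was not tested.

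Partners of the P450 enzymes were looked at from a list of electron carriers and haem genes. Of its 17 genes 6 were higher and 3 lower, and 8 did not pass. Over all genes tested 26.4% were called higher and 15.8% lower. Cyb5a, the microsomal cytochrome b5, fell from 1053, 947 and 1039 RPKM in fasted 1, 3 and 4 to 631, 582 and 643 in refed 5, 7 and 8 (log2 fold change -0.71 ± 0.10, limma adjusted p = 0.00092). Cyb5b, its mitochondrial outer membrane relative, rose from 56.3, 64.5 and 53.6 RPKM to 132, 120 and 130 (1.12 ± 0.10, adjusted p = 0.00011). Cyb5r3, the reductase of cytochrome b5 that works with NADH, rose 1.88-fold (adjusted p = 0.0017). Pgrmc1, a haem-binding partner of P450 enzymes, was at 500 ± 18.2 and 444 ± 49.1 RPKM (SD, n = 3) and did not pass (adjusted p = 0.21).

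Among the haem synthesis genes Alad and Ppox were higher at 1.51-fold and 1.49-fold (limma adjusted p of 0.0036 and 0.0025), and Cpox and Fech were lower, Cpox by 2.18-fold and Fech by 1.30-fold (0.00088 and 0.0065). Blvra, a biliverdin reductase gene, was higher at 1.32-fold (0.033). Alas1, the rate-limiting enzyme of liver haem synthesis, was at 218, 138 and 181 RPKM in fasted 1, 3 and 4 and at 201, 85.6 and 171 in refed 5, 7 and 8, with overlap (adjusted p = 0.47). Refed 7 was the lowest library for Alas1, as it was for Por.

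Of 11 receptor genes 7 were lower and 1 was higher, and 3 did not pass, beside 15.8% lower and 26.4% higher over all genes tested. Nr1i3, the gene of CAR, fell from 145, 181 and 196 RPKM in fasted 1, 3 and 4 to 60.4, 32.5 and 43.6 in refed 5, 7 and 8 (log2 fold change -1.95 ± 0.21, limma adjusted p = 0.00034). Ppara fell 4.40-fold (adjusted p = 4e-05), and Nr1i2, the gene of PXR, 1.43-fold (0.046). Ahr fell 1.40-fold (0.017) while its partner Arnt rose 1.78-fold (0.0004). The other lower genes were Rxra, Hnf4a and Nr0b2.

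Other targets of the same receptors were counted from lists that hold no P450 gene. Of 12 measured CAR and PXR targets outside the P450 genes 4 were lower, 4 higher and 4 did not pass. The shares over all genes tested were 15.8% lower and 26.4% higher. Slco1a4, a bile acid and drug uptake carrier, was 7.10-fold lower (limma adjusted p = 0.00029), while the glutathione transferase gene Gstm3 was 10.3-fold higher (3e-06), with 9.37 to 12.5 RPKM in fasted and 105 to 122 in refed libraries. The export pump genes Abcc2 and Abcc3 were each 2.03-fold lower (0.0016 and 0.00034). Of the 4 measured AHR targets outside the P450 genes only Tiparp passed, 4.05-fold higher (0.0011). Of 15 PPARA targets outside the P450 genes 13 were lower and 2 did not pass, with a median log2 fold change of -1.26, beside -2.10 for the 4a members and 0.10 for all genes tested.

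P450 genes of other families were measured beside the members. Of 11, Cyp17a1, of steroid synthesis, was lower, Cyp51, of cholesterol synthesis, and Cyp20a1 were higher, and 8 did not pass. Among all genes tested 42.2% were called in either direction. Cyp51 rose 4.27-fold (limma adjusted p = 0.00024) and Cyp17a1 fell 5.22-fold (3.1e-05).

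P450 genes stem from repeated duplication, so reads can fit more than 1 of them, and the sources used here do not say how such reads were placed. For 52 members a GENCODE transcript was matched by RefSeq accession, and each window of 50 bases was looked up in the transcripts of all other genes. Over 10% of the windows were found elsewhere for 27 members, of which 10 had been called lower and 4 higher. For windows of 100 bases this held for 9 members, 3 called lower and 3 higher. The read length is not given, so the true share of such reads lies beyond these data.

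Cyp2c40 had the highest share, 72.1% of its 50-base windows, most often with Cyp2c69, and Cyp2c69 and Cyp2c67 followed with 54.8% and 52.8%. The rises of these 3 genes and the level of Cyp2c68, at 43.3%, are therefore uncertain gene by gene. Cyp4a32 shared 46.8%, mostly with Cyp4a10, which shared 30.5%, and Cyp4a31 shared 21.8%, while Cyp4a14 shared 0.245%. In the 3a subfamily Cyp3a59 shared 28.0% and Cyp3a25 26.1%, chiefly with each other, and both fell by about the same factor. Cyp3a44 shared 26.5%, most with Cyp3a41a. Cyp2a5 shared 40.8%, most with Cyp2a4. Windows of Por and Cyp3a13 were found nowhere else, and Cyp2e1, Cyp4f14, Cyp4f15 and Cyp2c29 shared 4.76%, 2.97%, 2.45% and 2.08%.

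**Figure D5:**
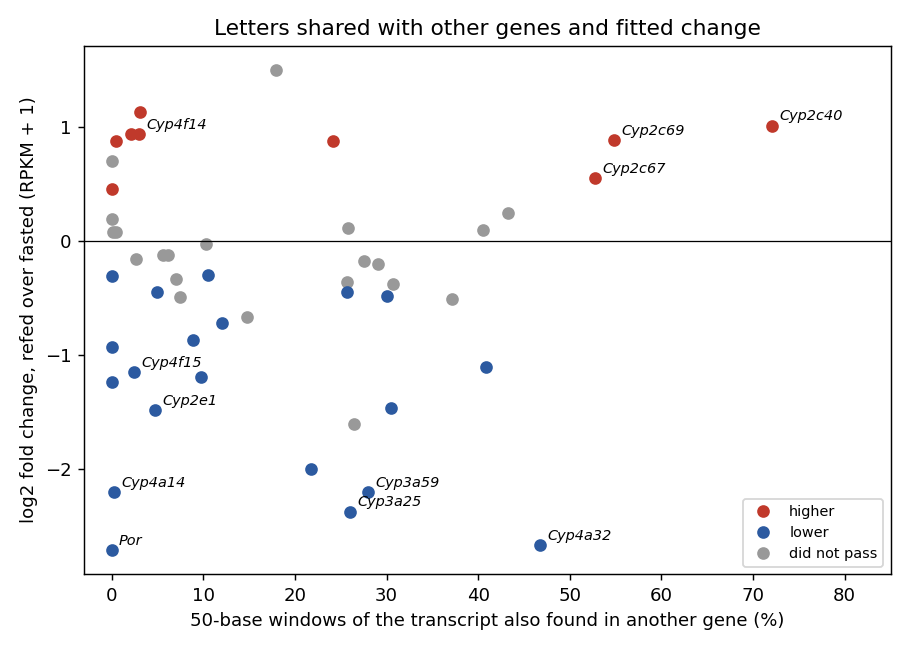
For each tested member matched to a GENCODE transcript, the share of its 50-base windows found in another gene (horizontal axis, percent) against its log2 fold change (vertical axis); colours give the call. Por, at 0% of windows shared, lies at -2.71, Cyp4a14, at 0.245%, at -2.21 and Cyp4a32, at 46.8%, at -2.67.

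Of the members, 41 had a promoter window in the RefSeq table, and windows of close copies resembled each other. Those of Cyp3a25 and Cyp3a59, printed above, were 95.7% identical over 301 aligned columns, and both held AGGTCA followed by the same motif on the other strand. Cyp3a57, which also fell, was 90.8% identical to Cyp3a59. Alike windows did not always go with the same call. Cyp2c68, which did not pass, and Cyp2c69, called higher, were 91.1% identical. Cyp2c37, called lower, and Cyp2c50, which did not pass, were 86.6% identical. Cyp2c29, called higher, and Cyp2c39, called lower, were 75.7% identical. The windows of Cyp2c40 and Cyp2c69 had 267 identical bases over 330 aligned columns (80.9%), and each had CAAAGTCCA, at -45 to -37 and at -75 to -67 from the annotated start. Since the shared letters are shifted between the windows, these columns include unpaired ends. The percentage is therefore not comparable with that of Cyp3a25 and Cyp3a59. In both, TATAAA lay after the annotated start, whereas in Cyp2e1 it lay at -31 to -26. The Por window held none of the 3 marked motifs.

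Counts of the motif letters over windows were taken on both strands, as descriptions of these letters only. TATAAA was found in 21 of 41 member windows (51.2%) and in 14.2% of the windows of all 27025 genes, of 300 bases each. The nuclear receptor motif AGGTCA was found in 12 of 41 (29.3%) and in 16.0% of all windows. The direct repeat of that motif with 1 base between is the DR1 element bound by PPARA with RXR. Its exact letters were in no member window and in 0.0444% of all windows. Cyp4a10, Cyp4a14 and Cyp4a31 had no window and were not searched, so Cyp4a32 was the only member of its subfamily looked at. Whether the promoters of the other members of that subfamily hold the element was therefore not tested. The HNF4 type letters CAAAGTCCA were found in 6 of 41 (14.6%) and in 0.477% of all windows, the 6 being Cyp2c40, Cyp2c67, Cyp2c68, Cyp2c69, Cyp2c70 and Cyp3a11. Of these 6 genes 3 were called higher and none lower, beside 26.4% higher and 15.8% lower over all genes tested. The windows of Cyp2c40, Cyp2c67, Cyp2c68 and Cyp2c69 resemble each other and are not independent. Whether these letters go with the direction of change was not tested. GCGTG, the core letters of the AHR site, was in 19.5% of member windows and 32.5% of all, GGGCGG in 19.5% and 35.9%, and CCAAT in 56.1% and 37.9%.

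The authors' deposited table of calls at a false discovery rate under 0.05 has 5434 rows, 2549 of them higher in refed liver. It lists 37 members, 28 lower and 9 higher. It holds 28 of the 30 members called here, 93.3% of these and 75.7% of the 37 in the authors' deposited table, and all 28 had the same direction. Cyp2d13 and Cyp2r1 were called here only. The 9 others that the authors' deposited table lists were Cyp2a12, Cyp2a22, Cyp2c38, Cyp2c50, Cyp2c70, Cyp2d9, Cyp2g1, Cyp4f13 and Cyp4v3, each in the direction of its mean RPKM. Both sets rest on the same 6 libraries and are not independent of each other.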

How the data were processed

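Libraries of frozen mouse liver RNA were made with an mRNA kit, per the labels' protocols, and sample titles gave the groups and library numbers. Whether every library comes from its own mouse is not stated, and p-values therefore reflect only the spread among these samples, some of which may be technical. The submitters' processing notes name FastQC, STAR 2.6.0c, DESeq2 and the build mm9, without saying what each was used for. RPKM values, 1 row per RefSeq transcript with a maximum of at least 1 in some library, were computed by the authors; the library total used and strand-specific counting are not given in the sources used here. The authors' other deposited table holds raw read counts, p-values, false discovery rates and log2 fold changes from DESeq for called genes, per the file headers. These counts were selected on the outcome, so no count test was run. A full count table was not used here.

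Transcripts were joined to genes by accession (14390) or symbol (215), 54 had no name, and the transcript with the highest mean stood for its gene. Genes whose mean reached 0.5 RPKM were tested with limma 3.58.1 in R 4.3.3 (trended, moderated variances, two-sided) on log2(RPKM + 1), without covariates. Fold changes on the log2(RPKM + 1) scale understate the change of low genes; a plain fold is the ratio of the group means. Errors are SD of 3 libraries for means and SE for log2 fold changes. The script was tested on simulated data. TMM-style factors came from edgeR 4.0.16, promoter alignments from Biopython 1.88. Statistics per library were given for Por and, in each subfamily, for the 3 called members with the largest change and the highest member. The members and gene lists were chosen with earlier results of these data known. Alternatives were 19 in number: pseudocounts of 0.1 and 5, no filter or a mean of at least 5 RPKM, 4 scalings, 2 variance models, summed transcripts, names by deposited symbol, each library left out, and, added after seeing the data, fasted 1 and refed 7 left out together. Values of 1 listed gene are not reported here.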

Additional observations from a re-analysis of the deposited data

How the results depend on the processing

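Over the 19 alternatives the number of members called higher was 7 to 10 and lower 16 to 28, beside 9 and 21 as reported. With each library left out in turn, members called higher numbered 8 to 10 and lower 16 to 22, and the log2 fold change of Por was -2.90 to -2.45. Por was called lower in all 19. Of the 30 called members 22 kept their call in every alternative in which they were tested, and 8 lost it in at least 1, Cyp1a2, Cyp2a5, Cyp2c37, Cyp2c44, Cyp2c54, Cyp2c67, Cyp2c69 and Cyp2d26. No called member changed direction. Cyp2c69 lost its call only without fasted 1 and refed 7 together (adjusted p = 0.083), a choice made after seeing the data. Cyp2c67 also lost its call with TMM-style scaling (0.07) and quantile normalization (0.062), Cyp2a5 with robust variances (0.09) and Cyp2d26 with quantile normalization (0.23) and with equal summed RPKM (0.074). Members lower numbered 26 with median centring, 28 with TMM-style scaling and 22 with quantile normalization, and 8 were higher in each. Summing transcripts, of which Cyp4f14 has 5, put the refed to fasted ratio of the 4f sum at 1.52 in place of 1.03. No paired analysis was possible because the groups share no replicate numbers. Full depth is unknown, so no counting intervals are given, and low members such as Cyp3a57 depend on the constant added to RPKM (log2 fold change -0.87, and -1.90 with 0.1). The cause of these differences was not tested.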
